A study of Homo sapiens with 12 samples.

Results

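Ewing sarcoma is driven in most tumours by a translocation that joins the front of EWSR1 to the back of FLI1. EWSR1 and TAF15 belong to the FET family, RNA-binding proteins with a low-complexity N-terminal region that acts as a strong transcription activator once it is joined to a DNA-binding domain, and with RNA-binding domains in the C-terminal part that the fusion loses. FLI1 is an ETS transcription factor of blood and endothelial cells, and its DNA-binding ETS domain lies in the part that the fusion keeps. The EWSR1, FLI1 and TAF15 rows of the count table, 3 of 26334 gene symbols, were taken by symbol and followed over time after transcription was blocked. All 3 had enough counts to be tested.

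The cells were A673, an established Ewing sarcoma line, from a derivative that the labels name shA673-1c. RNA was taken after 0, 1, 2 and 4 h in 5 µM actinomycin D, an inhibitor of transcription, with 3 biological replicates per time point and 12 libraries in all. Every group, 0 h included, was grown in DMEM with serum, antibiotics, blasticidin and zeocyn, so no group is free of the selection drugs. The labels do not say what the "sh" in the name targets, mention no inducer and do not say whether the line is a single clone.

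The counts are per gene, so reads from the fusion transcript and from the normal EWSR1 and FLI1 transcripts fall in the same 2 rows and were not separated. A673 is known to join exon 7 of EWSR1 to exon 6 of FLI1. In the canonical transcripts of GENCODE version 44, exons 1 to 7 make up 862 of the 2400 nt of EWSR1 (35.9%), and exons 6 to 9 make up 2983 of the 3825 nt of FLI1 (78.0%). A transcript made of these parts would be 3845 nt long, with most of its length in the FLI1 row.

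Library totals ranged from 9147018 to 11194705 counts, and the 12032 genes that averaged 10 counts or more were tested. Values are CPM, counts brought to a common library size with edgeR's TMM factors. No spike-in control was used here, so each slope is relative to the other transcripts, and fewer cells and less RNA per cell cannot be told apart. Of 8 Ewing sarcoma markers, 7 were tested, and the markers summed to between 1920 and 2480 CPM per library. Most of this sum was CCND1 (1680 ± 55.2 CPM at 0 h), while NR0B1 was at 38.2 and NKX2-2 at 7.08 CPM at 0 h. NR0B1 and NKX2-2 fell with slopes of -0.53 and -0.65 log2 per hour (highest adjusted p = 1.3e-07, edgeR). CCND1 rose with a slope of 0.063 (adjusted p = 0.000722, edgeR), and PRKCB (0.090), LIPI (0.021), STEAP1 (-0.0035) and GLI1 (-0.063) were not past the threshold. CD99, the surface marker used in diagnosis, was listed at 0 in all 12 libraries. So were all 15 protein-coding genes of pseudoautosomal region 1 found in the table, which include CD99 and the ADP/ATP carrier SLC25A6, so CD99 could not be used as a marker. Endothelial markers, which belong to a cell type that expresses FLI1, summed to 0.178 to 1.45 CPM. Among 6 markers of blood cells, SPI1 and GATA1 were at 0 in every library, and the list summed to 5.79 to 10.5 CPM, mostly from CORO1A and CD34. The epithelial markers summed to 248 to 394 CPM, almost all of it KRT18, while EPCAM had at most 6 counts and CDH1 at most 1 count in a library.

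FLI1, on chromosome 11 of GRCh38 from 128686535 to 128813267, was lost quickly, while EWSR1 (chromosome 22, 29268009 to 29300525) and TAF15 (chromosome 17, 35809482 to 35864615) were not lost relative to the scaling. By 4 h, FLI1 was at 25.5% of its 0 h mean, and EWSR1 and TAF15 were at 129.6% and 131.3% of theirs. Per kilobase of canonical transcript, the levels at 0 h were 132.6 ± 11.2 CPM per kb for EWSR1, 36.6 ± 4.16 for TAF15 and 20.9 ± 0.540 for FLI1 (mean ± SD, n = 3). Neighbours in this order did not overlap, with FLI1 libraries at 20.3 to 21.4 and TAF15 libraries at 32.4 to 40.7 CPM per kb. At 4 h the order was the same and the distance was wider, with 171.9 ± 14.7 for EWSR1, 48.1 ± 2.74 for TAF15 and 5.33 ± 1.16 for FLI1. The per-kb level of FLI1 uses the normal transcript's length, although an unknown share of its reads may come from the fusion.

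In FLI1, the scaled levels at 0 h were 77.8, 81.8 and 80.7 CPM in replicates 1, 2 and 3. At 1 h they were 71.5, 73.8 and 70.9 CPM, at 2 h 52.3, 50.5 and 49.5 CPM, and at 4 h 20.3, 24.9 and 16.03 CPM. No library of one time point overlapped with those of another, and the replicates were close to each other up to 2 h and spread most at 4 h. The counts behind these values ran from 143 to 908. The slope over all 4 times was -0.50 log2 per hour (standard error 0.040, adjusted p = 2.47e-08, edgeR). As a half-life relative to the TMM scaling this is 2.00 h, with a 95% interval of 1.73 to 2.37 h from the standard error. The interval does not cover the choice of scaling or of times. The slope was -0.64 with scaling to GAPDH and ACTB, and -0.31 with TMM but without 4 h. Each replicate alone gave a fall, with slopes of -0.50, -0.45 and -0.60. Among all tested genes 32.1% fell, and the slope of FLI1 ranked 569 from the steepest, with 4.72% of genes below it.

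**Figure D1:**
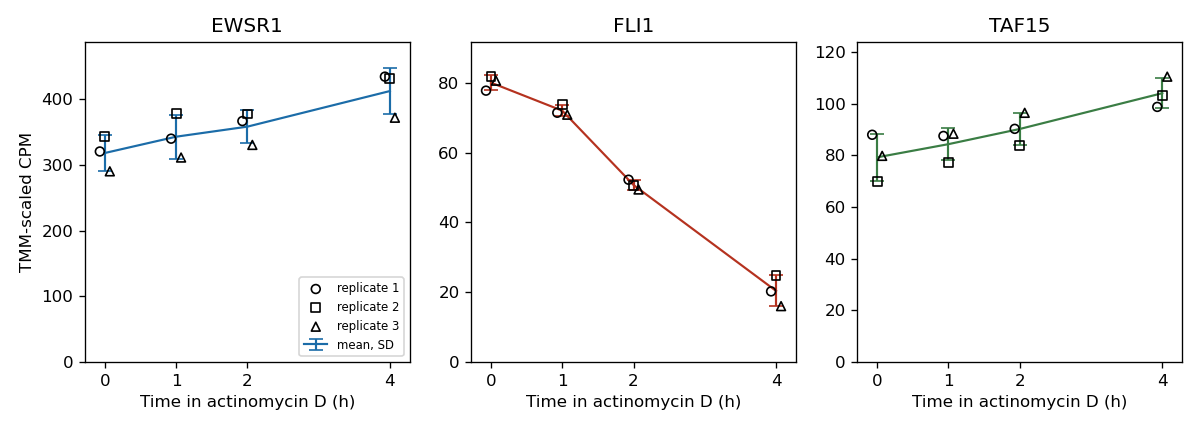
TMM-scaled CPM (vertical axis, from 0) against hours in actinomycin D for EWSR1, FLI1 and TAF15, with 1 symbol per replicate, and lines and bars for the mean and SD of 3 libraries. FLI1 fell from a mean of 80.1 to 20.4 CPM, while EWSR1 rose from 318.2 to 412.5 CPM and TAF15 from 79.2 to 104.0 CPM on this scale.

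The estimated fall of FLI1 per hour was smallest in the first hour. Between 0 and 1 h its change was -0.15 log2 (standard error 0.096, adjusted p = 0.553, edgeR), although its libraries did not overlap between these times, and the adjusted p was 0.0839 (edgeR) when replicate number was added as a block. Only 2.24% of genes were lower and 0.349% higher at 1 h than at 0 h. Between 1 and 2 h FLI1 fell by 0.51 log2 (standard error 0.099, adjusted p = 0.00283, edgeR), where 12.5% of genes were lower. Between 2 and 4 h it fell by 1.31 log2 (standard error 0.11, adjusted p = 2.7e-06, edgeR), where 18.3% of genes were lower and 1.46% of genes changed more steeply downwards. Per hour these intervals gave -0.15, -0.51 and -0.65 log2, and the last corresponds to a half-life of 1.53 h relative to the TMM scaling. The rate from 2 to 4 h was more negative than that from 0 to 1 h by -0.50 log2 per hour (standard error 0.11, adjusted p = 0.0416, edgeR), a contrast chosen after the counts were seen, for which 0.598% of all genes were called in this direction. With the block its adjusted p was 2.15e-05 (edgeR), and without replicate 1, 2 or 3 it was 0.473, 0.286 and 0.0606 (edgeR). The general test for a departure from a straight line did not pass for FLI1 (F = 10.5, adjusted p = 0.0573, edgeR; 2.70% of genes passed), but did with the block (adjusted p = 5.28e-05, edgeR). The half-life of 2.00 h comes from 1 slope over the whole course, and whether a departure from that line was called depended on the block. The slope of FLI1 was -0.61 from 1 h on and -0.31 up to 2 h.

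Against 0 h, FLI1 was lower at 2 h by -0.66 log2 (standard error 0.099, adjusted p = 0.000158, edgeR), and at 4 h by -1.97 log2 (standard error 0.11, adjusted p = 3.49e-09, edgeR). These tests called 19.4% of genes lower and 10.8% higher at 2 h, and 31.6% lower and 28.7% higher at 4 h.

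EWSR1 encodes the FET protein that gives the fusion its activating part, and it was the most abundant of the 3 transcripts. Its levels were 320.5, 343.8 and 290.3 CPM at 0 h, 340.0, 377.8 and 311.3 CPM at 1 h, 366.8, 377.6 and 330.5 CPM at 2 h, and 434.4, 431.2 and 371.9 CPM at 4 h in replicates 1, 2 and 3. Every replicate was higher at 4 h than at 0 h and replicate 3 was the lowest at each time, so the groups overlapped between neighbouring times but not between 0 and 4 h. Its slope was 0.092 log2 per hour (standard error 0.020, adjusted p = 0.000626, edgeR), and 30.7% of all genes rose. The change at 4 h was 0.37 log2 (standard error 0.088, adjusted p = 0.00203, edgeR). At 1 h (0.11 log2) and 2 h (0.17 log2) it was not past the threshold (adjusted p = 0.679 and 0.164, edgeR), but it was with the replicate block (adjusted p = 0.0231 and 6.37e-05, edgeR). The sign of the slope depended on the scaling. With library totals it was 0.053 (adjusted p = 0.015, edgeR), but when each library was scaled to its GAPDH and ACTB counts, it was -0.046 (standard error 0.018, adjusted p = 0.0333, edgeR). GAPDH and ACTB themselves rose relative to the TMM scaling (slopes 0.15 and 0.12, adjusted p = 6.17e-08 and 0.00042, edgeR). Scaling to them therefore lowers the slopes of the other genes.

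TAF15, a FET protein that also associates with the general transcription factor TFIID, rose relative to the TMM scaling. Its levels were 87.9, 69.9 and 79.8 CPM at 0 h, 87.5, 77.1 and 88.3 CPM at 1 h, 90.2, 83.9 and 96.4 CPM at 2 h, and 98.7, 103.0 and 110.4 CPM at 4 h. The 4 h libraries were all above those of the earlier times, which overlapped with each other. The slope was 0.099 log2 per hour (standard error 0.020, adjusted p = 0.000368, edgeR), with 0.045, 0.14 and 0.12 in replicates 1, 2 and 3. The change at 4 h was 0.39 log2 (standard error 0.088, adjusted p = 0.00142, edgeR). At 2 h it was 0.19 log2 (adjusted p = 0.128, edgeR, or 0.00541 with the block). With scaling to GAPDH and ACTB the slope of TAF15 was -0.038 and not past the threshold (adjusted p = 0.227, edgeR).

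**Figure D2:**
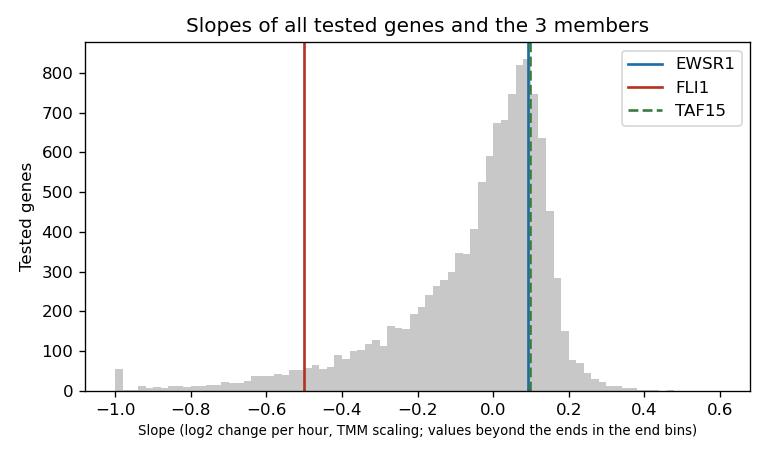
Number of tested genes (vertical axis) by slope in log2 change per hour (horizontal axis, TMM scaling), with lines at the slopes of the 3 genes. FLI1 at -0.50 lay in the left tail, and EWSR1 at 0.092 and TAF15 at 0.099 lay near the peak of the distribution, above 76.0% and 78.4% of genes.

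The ratio of 2 genes within a library does not depend on how libraries are scaled, so the 3 pairs were compared this way. The FLI1 count was 0.243, 0.238 and 0.278 of the EWSR1 count at 0 h, 0.210, 0.195 and 0.228 at 1 h, 0.142, 0.134 and 0.150 at 2 h, and 0.0466, 0.0577 and 0.0431 at 4 h. It fell in every replicate at each step. The log2 ratio of FLI1 to EWSR1 had a slope of -0.61 per hour (two-sided permutation test over 12 libraries, 100000 resamples, p = 1e-05, the smallest it can give; adjusted over 3 pairs, p = 3e-05), with -0.615, -0.524 and -0.691 in single replicates. The FLI1 count was 1.02 ± 0.143 of the TAF15 count at 0 h and 0.197 ± 0.0487 at 4 h (mean ± SD, n = 3). The slope of this log2 ratio was -0.62 per hour (permutation test, p = 3e-05, adjusted p = 4.5e-05), again below 0 in 3 of 3 replicates. The ratio of EWSR1 to TAF15 had a slope of -0.0078 per hour (permutation test, adjusted p = 0.844). Its values in replicates 1, 2 and 3 were 0.066, -0.063 and -0.027, with an SD of 0.067 that was larger than their mean.

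**Figure D3:**
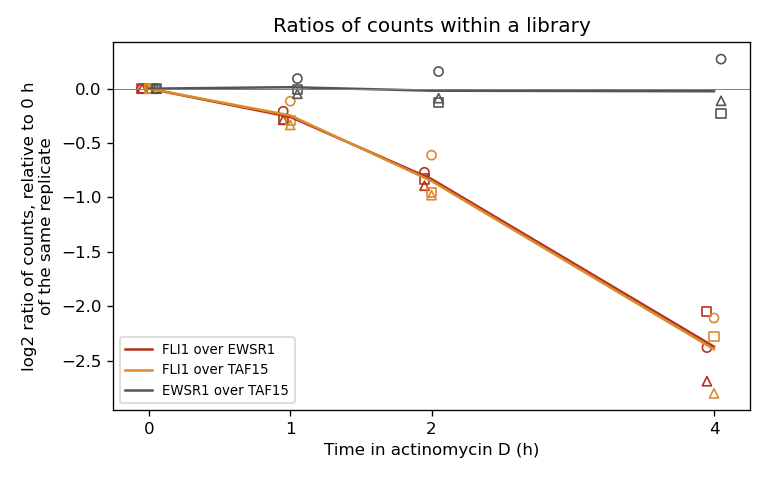
Change of the log2 ratio of counts since 0 h of the same replicate (vertical axis) against hours in actinomycin D, with 1 symbol per replicate (circle, square and triangle for replicates 1, 2 and 3) and lines for the mean of 3. Both ratios with FLI1 fell in each replicate, while the ratio of EWSR1 to TAF15 scattered around 0.

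Since the EWSR1 row also holds the front part of the fusion, the share it could take up was worked out from the lengths above. If every FLI1 count came from the fusion and reads were spread evenly along it, the fusion would supply 7.31% ± 0.628 of the EWSR1 counts at 0 h and 1.42% ± 0.220 at 4 h (mean ± SD, n = 3). Taking these counts away moved the slope of EWSR1 from 0.092 to 0.11 (adjusted p = 0.000104, edgeR). Neither assumption could be checked in gene-level counts. How the FLI1 counts divide between normal FLI1 and the fusion cannot be told from this table.

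Other genes overlap the members, all on the opposite strand except the long noncoding RNA ENSG00000270894, which shares 5315 bases of genomic span and the strand with TAF15. The kit keeps strand, but whether the counting used it is not given in the sources used here. RHBDD3 overlaps the start of EWSR1 by 201 bases and had 167 to 337 counts, with a slope of 0.15 (adjusted p = 0.00277, edgeR). SENCR, a long noncoding RNA antisense to FLI1, had at most 3 counts in a library, against at least 143 for FLI1. HEATR9, which overlaps TAF15, was at 0 in all libraries.

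AU-rich pentamers (AUUUA, on the transcript strand, overlaps counted) in the 3′ UTR are known as binding sites of decay factors and were counted in the canonical transcripts. FLI1 has 9 in a 3′ UTR of 2279 nt, which the fusion retains, EWSR1 has 3 in 360 nt, and TAF15 has 0 in 297 nt. Per kb this is 3.95 for FLI1 and 8.33 for EWSR1, against a median of 1.78 over the 10818 tested genes with an annotated 3′ UTR. The pentamer occurs in 75.1% of these, and 18.9% have at least as many as FLI1. The closest pair of sites in each gene, 14 nt apart in EWSR1 and 37 nt apart in FLI1, is shown from the reference transcripts (GENCODE, 5′ to 3′), with the pentamer in capitals and T for U.
EWSR1 site 2: tgttttaaATTTAtaattcca
EWSR1 site 3: aattccatATTTAtaatgttg
FLI1 site 2: gtacagttATTTAacaggcat
FLI1 site 3: gataatccATTTAgatcttta
These matches are letters in the reference, and their use in these cells was not measured.

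**Figure D4:**
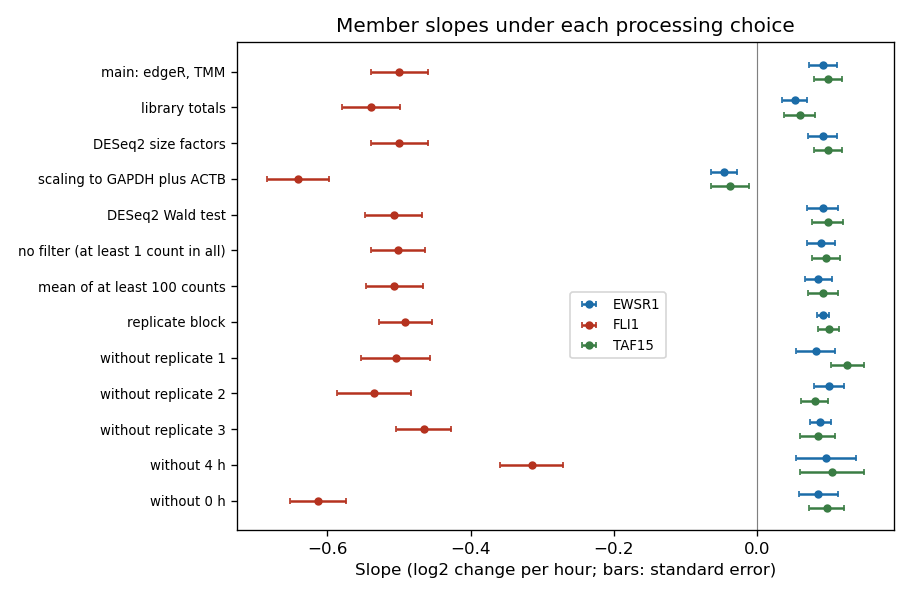
Slope of each gene in log2 change per hour (horizontal axis, bars for the standard error) with edgeR and TMM (top) and under 12 other processing choices (below). FLI1 stayed between -0.64 and -0.31, and EWSR1 and TAF15 were above 0 except under scaling to GAPDH plus ACTB.

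For each gene, the 5 tested transcripts most like it were those with the highest Pearson correlation of log2 CPM over the 12 libraries, out of 8853 candidates averaging 100 counts or more. The 12 libraries share time points and replicates, so these correlations describe the course and are not tests. For FLI1 they were FADD (r = 0.998), an adaptor of death receptors, DCLRE1B (0.996), a telomere-protecting nuclease, NET1 (0.996), an activator of the GTPase RhoA, SIN3A (0.995), a co-repressor scaffold, and NXT1 (0.994), an mRNA export factor. FADD fell from 45.8 ± 1.45 to 5.11 ± 1.46 CPM (slope -0.77, adjusted p = 5.64e-09, edgeR) and NET1 from 77.3 ± 5.77 to 22.2 ± 3.06 CPM (slope -0.45, adjusted p = 1.51e-08, edgeR), so a like course did not mean a like rate. For EWSR1 they were ACTA2 (r = 0.984), SUN2 (0.983), CSRP1 (0.980), CALR (0.976) and NOLC1 (0.975), with slopes from 0.059 to 0.15. For TAF15 they were NAPRT (0.959), FERMT3 (0.958), ECI1 (0.957), NT5DC2 (0.953) and PITPNM1 (0.953), with slopes from 0.13 to 0.21. The correlations for FLI1 were nearest to 1, and FLI1 is also the gene with the largest change.

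FET genes are joined to many transcription factor genes in sarcomas and leukaemias, and 22 such partners were listed. All were in the table and 17 were tested, of which 10 fell, 1 rose and 6 did not pass the threshold, with a median slope of -0.096 against 0.0093 over all tested genes, of which 32.1% fell and 30.7% rose. With scaling to GAPDH and ACTB, 16 of the 17 fell and 0 rose (0 at an unadjusted p below 0.05 too, edgeR), where 64.2% of all tested genes fell and 0.931% rose. Among the ETS partners that stand in for FLI1 in some Ewing sarcomas, ERG had at most 3 counts per library and FEV at most 19, so neither was tested. ETV1 was at 82.0 ± 4.37 CPM at 0 h and 78.0 ± 3.17 CPM at 4 h (slope -0.013, adjusted p = 0.492, edgeR), but fell with scaling to GAPDH and ACTB (slope -0.15, adjusted p = 3.85e-05, edgeR). ETV4 rose from 15.9 ± 1.57 to 23.0 ± 4.57 CPM (slope 0.12, adjusted p = 0.00439, edgeR), a rise that lost its call without replicate 1, without 0 h or with library totals, and that became a slope of -0.020 with scaling to GAPDH and ACTB.

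The steepest falls in this list were those of DDIT3 (slope -0.69, standard error 0.049), a stress-induced factor fused in myxoid liposarcoma, WT1 (-0.55, standard error 0.068), fused in desmoplastic small round cell tumour, and PATZ1 (-0.46, standard error 0.035), a zinc finger factor fused in rare round cell sarcomas. Their highest adjusted p was 2.85e-06 (edgeR). WT1 went from 6.70 ± 0.826 to 1.38 ± 0.268 CPM on 11 to 85 counts. The bZIP factors CREB1 and ATF1, fused to EWSR1 in clear cell sarcoma, also fell, CREB1 from 58.8 ± 4.24 to 24.7 ± 3.90 CPM and ATF1 from 28.3 ± 4.48 to 20.5 ± 1.32 CPM. CREB3L1 and CREB3L2 of the same class had slopes of -0.034 and 0.0093 that were not past the threshold. The other 2 called genes nearest to 0 were TFCP2 (slope -0.040, adjusted p = 0.0171, edgeR), fused in some rhabdomyosarcomas, and ZNF384 (slope -0.096), fused in acute leukaemias.

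The second list held 39 genes whose proteins bind, modify, import or work with FET proteins or the fusion protein, of which 38 were tested. Of these 19 rose, 8 fell and 11 did not pass the threshold relative to the TMM scaling (median slope 0.050), whereas 27 fell and 0 rose with scaling to GAPDH and ACTB (0 rose at an unadjusted p below 0.05 too, edgeR). Over all tested genes 30.7% rose and 32.1% fell with TMM, and 64.2% fell and 0.931% rose with GAPDH and ACTB. In the group of TFIID subunits and coactivators 4 of 5 fell, among them CREBBP (147 ± 17.4 to 41.8 ± 7.56 CPM) and EP300 (137 ± 18.4 to 45.2 ± 3.24 CPM), the paired histone acetyltransferases, and TAF7 (156 ± 10.2 to 66.0 ± 5.31 CPM), while TAF1 had a slope of -0.010 (adjusted p = 0.689, edgeR).

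Of 10 genes for the BAF chromatin remodelling complex, which the fusion protein recruits, 7 rose and 2 fell, against 30.7% and 32.1% of all tested genes. ARID1A, its large DNA-binding subunit, fell from 217 ± 23.9 to 55.7 ± 4.95 CPM (slope -0.51, standard error 0.031, adjusted p = 2.75e-09, edgeR), almost the slope of FLI1, and DPF2 fell with a slope of -0.27. The core subunit SMARCB1 (slope 0.062, adjusted p = 0.000633, edgeR) and BRD9 of the non-canonical form (slope 0.15, adjusted p = 1.72e-05, edgeR) rose relative to the TMM scaling. With scaling to GAPDH and ACTB, SMARCB1 fell (slope -0.076) and BRD9 had a slope of 0.010 that was not past the threshold.

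Of the genes for nuclear import 2 of 3 rose, of those for arginine methylation 1 of 2, and of those for RNA processing 4 of 8, where 1 fell and 3 did not pass the threshold (median slope 0.038). Over all tested genes 30.7% rose and 32.1% fell. With the replicate block KPNB1, PRMT3 and DDX5 also rose (adjusted p = 0.0392, 0.0229 and 0.0103, edgeR), where 4356 of 12032 tested genes rose. TNPO1 and TNPO2, importins that carry FET proteins into the nucleus, had slopes of 0.097 and 0.15, PRMT1, which methylates their arginines, 0.12, and SNRPC, the U1 protein that EWSR1 binds, 0.12, with a highest adjusted p of 4.29e-06 (edgeR). With scaling to GAPDH and ACTB, none of these 4 was past the threshold (slopes from -0.040 to 0.014). DHX9, a helicase that binds the fusion protein, rose (slope 0.062, adjusted p = 0.000942, edgeR), but its slope was -0.076 with scaling to GAPDH and ACTB. YBX1, an abundant RNA-binding protein, had a slope of 0.15, or 0.0077 with scaling to GAPDH and ACTB. HNRNPH1 and SF3B1 are known from splicing of the fusion pre-mRNA, but whether either acts on the fusion formed in A673 was not measured. Their slopes were 0.10 (adjusted p = 0.00223, edgeR) and 0.018 (adjusted p = 0.218, edgeR), and HNRNPH1 was at -0.036 with scaling to GAPDH and ACTB. LIN28B, an oncofetal RNA-binding protein that binds the fusion mRNA, fell from 68.5 ± 0.132 to 22.1 ± 2.47 CPM (slope -0.42, adjusted p = 5.38e-06, edgeR).

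**Figure D5:**
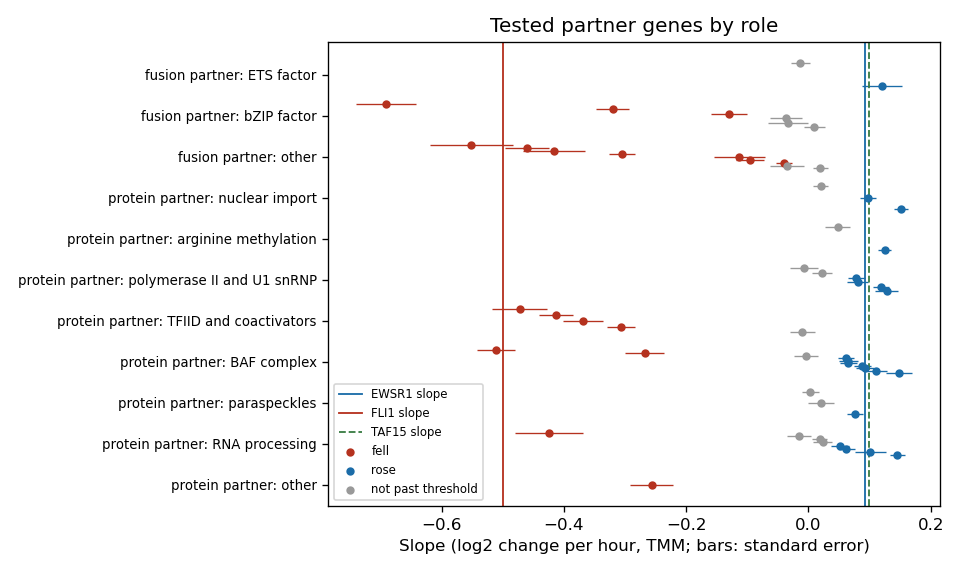
Slope in log2 change per hour (horizontal axis, TMM scaling, bars for the standard error) of the tested partner genes by list and role, coloured by call, with lines at the 3 members. ARID1A, LIN28B, CREBBP and EP300 had slopes from -0.51 to -0.41, and TNPO1, TNPO2, PRMT1 and SNRPC had slopes from 0.097 to 0.15.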

How the data were processed

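Poly(A)-selected, stranded libraries (Illumina TruSeq) were made by the study from 12 samples. The deposited table holds whole-number counts per gene symbol, not normalized by the authors. Per the labels, the submitters' processing notes name FastQC, STAR and hg19. The study's general methods for this kit instead name Salmon on the Ensembl GRCh38 transcriptome with tximport, but do not name these libraries. Which route and annotation made the table is not given in the sources used here. Coordinates, lengths and sequences are from GENCODE version 44 (GRCh38) and were not used for counting. Columns were matched to samples by title, with 0 left unused. Replicate pairs differed by more than sampling noise (chi-square over its degrees of freedom, 3.20 to 8.65).

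Genes averaging 10 counts or more were fitted with edgeR 4.0.16 (R 4.3.3): TMM, glmQLFit and glmQLFTest, time as a number (slope), as 4 groups, or as a cubic (departure from a line, joint test of the curved terms), with no block and Benjamini-Hochberg adjustment over 12032 genes. An adjusted p below 0.05 was called. Standard errors come from the F statistic. Log2 CPM used a prior count of 2, and ratios a pseudocount of 0.5. Libraries with the same replicate number deviated together in every pair (r from 0.300 to 0.612 over 18 pairs, from the labels' numbers). Blocked values are therefore given where they change a call of a member, and for some partners. The slope test was tested on simulated data, where 1.96% of calls were false. It recovered 26 of 66 genes given a slope size of 0.1, 60 of 67 at 0.25 and 64 of 67 at 0.5. Slopes near 0.1 were thus often missed there. The simulation changed far fewer genes than were called in the data, where 3859 fell and 3694 rose. Its recovery therefore does not measure that of the test in these data. Alternatives were library totals, DESeq2 1.42.0 (size factors; Wald test), scaling to GAPDH plus ACTB, other filters, the block, and leaving out replicates or times. The members, lists and tests were chosen with earlier results of these data known. Named genes were the members, the 5 most correlated genes each, and the 3 lowest and 3 highest called slopes per partner list. Fixed partners and markers were named too. CREB1, ATF1, CREB3L1, CREB3L2, FEV, EP300, TAF7, TAF1, DPF2, KPNB1, PRMT3 and DDX5 were added after their values were seen.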

Additional observations from a re-analysis of the deposited data

How the results depend on the processing

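FLI1 fell in the slope test, at 4 h and in both ratios under every alternative run. The scaling decided the sign of the others. GAPDH and ACTB themselves rose relative to the TMM scaling, and scaling to them moved the median slope of all genes by -0.138. The slopes were then -0.046 for EWSR1 (adjusted p = 0.0333, edgeR) and -0.038 for TAF15 (adjusted p = 0.227, edgeR). The changes at 4 h were -0.17 and -0.15 log2, neither past the threshold (adjusted p = 0.0692 and 0.288, edgeR). Then 7729 genes fell and 112 rose, with 16 fusion partners and 27 protein partners falling and 0 of either rising (at an unadjusted p below 0.05 also 0 of either, edgeR). With library totals 2242 genes and 0 fusion partners rose (1 at an unadjusted p below 0.05, edgeR), and falling genes made up 67.7% of calls. Without 4 h, the slopes of EWSR1 (0.096) and TAF15 (0.10) were not past the threshold. Of 12060 tested genes 2215 then fell and 1447 rose, while 6 fusion partners fell and 12 protein partners rose. Without 0 h, 0 fusion partners rose (also 0 at an unadjusted p below 0.05, edgeR), where 2938 of 11990 tested genes rose. Leaving out single replicates gave 0 to 1 rising fusion partners, with 0 without replicate 1 (1 at an unadjusted p below 0.05, edgeR). Without replicates 1, 2 and 3, the rising genes were 3096 of 12057, 2968 of 12055 and 3329 of 11991 tested. The log2 ratio of EWSR1 to TAF15 ran from -0.045 to 0.020 per hour without single replicates, and within replicate blocks its slope was -0.0078 as before. The replicate block brought the departure of FLI1 from a straight line past the threshold (F = 22.5). It changed no call of the members' slopes, 4 h changes or ratios. With the block 11 fusion partners fell and 22 protein partners rose, where 4182 of all 12032 tested genes fell and 4356 rose. The block, the leave-one-out checks of the departure and of the rate contrast, and the subtraction of possible fusion counts were chosen for those results after seeing the data. FLI1 at 4 h, with 143 to 257 counts, is the least precise of the member values.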
